A study of Capra hircus with 6 samples.

Results

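The granins CHGA, CHGB, SCG2, SCG3 and VGF are the 5 genes described here, taken by gene symbol from a table of 28907 gene rows. Read counts came from the medio-basal hypothalamus, the base of the hypothalamus above the pituitary stalk, of adult Alpine goats. The groups were goats sampled in January in the follicular phase, when ovarian follicles ripen before ovulation (5 goats), and goats in anestrus, the season without ovarian cycles, in mid-May (8 goats). A further January group in the luteal phase was not analysed here. For each group, RNA of the individual goats was combined at random in equal amounts into 2 pools, and each library is such a pool. The sources do not say how many goats entered a pool or whether a goat entered both. The p-values therefore measure the spread between pools, and season and ovarian state differ together between the groups.

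Granins are acidic proteins of the regulated secretory pathway. In neurons and endocrine cells they condense in the trans-Golgi network with peptide hormones and neuropeptides, and so form the core of the dense-core granule. Prohormone convertases then cut many of them at pairs of basic residues into peptides that are released with the hormone. In the medio-basal hypothalamus such granules fill the neurosecretory terminals of the median eminence, and the adjoining pars tuberalis of the pituitary also holds granule-bearing endocrine cells.

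All 5 granins passed the filter on low counts, which left 16756 genes to test. Library totals ranged from 14553821 to 25292678 counts. Granin counts ranged from 613, for VGF in follicular pool 2, to 97077, for SCG2 in follicular pool 1. The smallest of these has an exact Poisson 95% interval of 565.4 to 663.5, which covers counting error only, so counting was a small part of the spread between pools. Levels are CPM, counts scaled to a common library total by the TMM method. They are not divided by transcript length, so they are compared between pools and not between genes. Log2 fold changes are follicular minus anestrus, with a standard error. A gene is said to have passed at an adjusted p under 0.05 in edgeR's quasi-likelihood test, adjusted over all genes tested.

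None of the 5 granins passed. CHGA had the largest difference, 1.97-fold higher in the follicular phase, while the levels of CHGB, SCG2 and SCG3 lay within 1.17-fold between the group means. VGF was 1.60-fold higher in anestrus by the group means, but its pools differed over 3-fold within each group. The share of all genes that passed was 0.203%, at 34 genes. At an unadjusted p under 0.05 the count was 1 of the 5, CHGA, beside 8.55% of all genes tested. The DESeq2 Wald test called 1 granin, again CHGA, and limma-voom called 0.

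**Figure D1:**
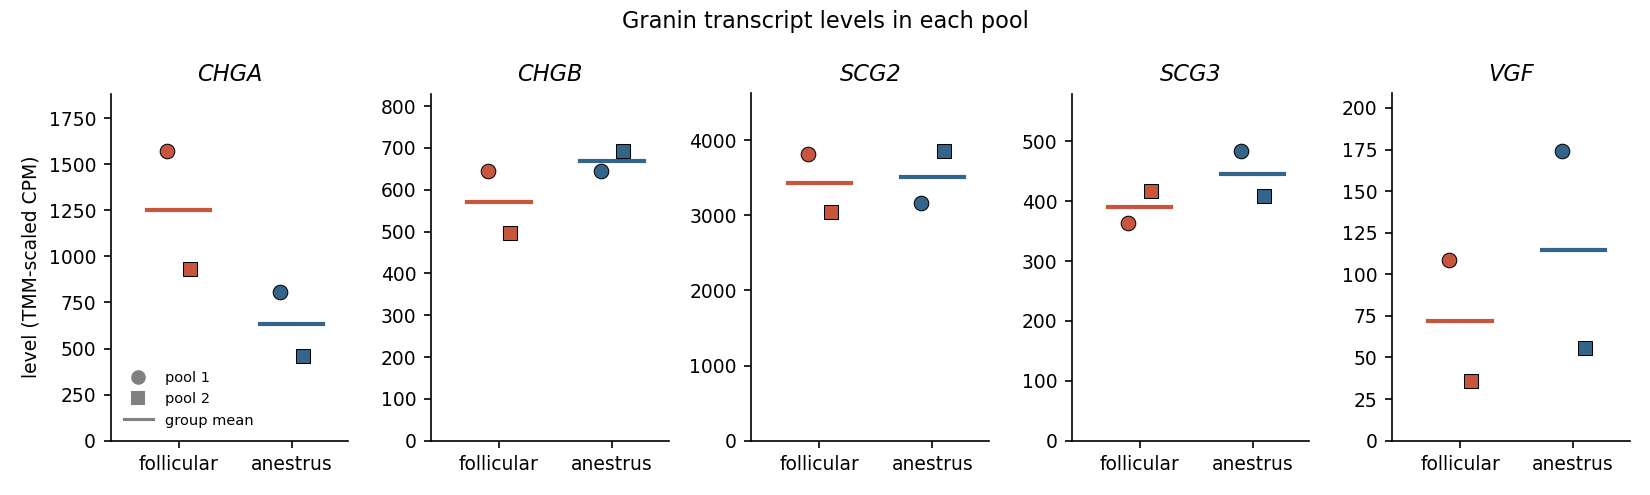
Level of each granin (TMM-scaled CPM, linear axes from 0) in the 4 pools, with circles for pool 1, squares for pool 2 and a line at each group mean. Both follicular pools lie above both anestrus pools for CHGA, the groups overlap for SCG2, SCG3 and VGF, and the VGF pools of a group lie about 3-fold apart.

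Chromogranin A, encoded by CHGA (gene 102183186), drives granule formation and is the precursor of vasostatin, pancreastatin and catestatin. The follicular pools 1 and 2 had 1570 and 932 CPM, and the anestrus pools 1 and 2 had 808 and 460.0 CPM; pools are given in this order throughout. Both follicular pools were higher than both anestrus pools, with 932 CPM as the lower follicular value and 808 CPM as the higher anestrus value. The groups lay apart in this direction for 17.6% of all genes tested. The follicular mean was 1251 ± 451 CPM and the anestrus mean 634 ± 246 CPM (SD, n = 2 pools each). The log2 fold change was 0.98 ± 0.33 with an adjusted p of 0.452 in edgeR. Its 95% interval, not adjusted for the number of genes, ran from 0.20 to 1.76.

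The spread of CHGA within groups was large beside the difference between them. Its 2 pools differed 1.68-fold in the follicular phase and 1.76-fold in anestrus, while the group means differed 1.97-fold. Of all genes tested, 9.02% differed at least as much between the follicular pools and 14.5% between the anestrus pools. The medians over all genes were 1.17-fold and 1.24-fold. Left out in turn, each pool moved the log2 fold change of CHGA. Leaving out follicular pool 1 gave 0.58 (adjusted p = 0.9997 in edgeR), and leaving out follicular pool 2 gave 1.31 (adjusted p = 0.000552). Leaving out anestrus pool 1 gave 1.44 (adjusted p = 3.21e-10), and leaving out anestrus pool 2 gave 0.68 (adjusted p = 0.0243). A fit that leaves out a pool has no spread within that group and cannot settle whether CHGA, or any other gene below, differed.

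With all pools, CHGA passed in 4 of 9 other analyses at nearly the same fold change, from 0.98 to 1.01 on the log2 scale. These were the DESeq2 Wald test (adjusted p = 0.0392), edgeR with no low-count filter (adjusted p = 2.66e-05), and edgeR with a replicate block by library name (adjusted p = 0.0272) or by title number (adjusted p = 0.00127). The blocks pair the pools in opposite ways, so not both can hold, and the labels state no pairing. The analyses differ in the spread they assign to the gene, with a standard error of 0.18 without the count filter and 0.33 with it. Over all genes these analyses also called more, namely 146, 300, 90 and 130.

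Chromogranin B, encoded by CHGB (gene 102174223), is stored beside chromogranin A and also takes part in granule formation. Its level was 644 and 497 CPM in the follicular pools, against 645 and 692 CPM for anestrus. Follicular pool 2 was the low value, and the other 3 pools lay close together. The means were 570.3 ± 104 CPM and 668 ± 32.8 CPM (SD, n = 2 pools each), a log2 fold change of -0.23 ± 0.17 (adjusted p = 0.794, edgeR). The interval from -0.61 to 0.15 allows a level up to 1.52-fold higher in anestrus or 1.11-fold higher in the follicular phase. The groups lay apart by less than 2 CPM, in a direction in which 20.7% of all genes tested lay apart, and they overlapped when scaled by RLE size factors or by library totals.

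Secretogranin II, encoded by SCG2 (gene 102186255), is the precursor of secretoneurin, a neuropeptide that acts on gonadotrophs and on blood vessels. It took 0.384% and 0.307% of all counts in the follicular pools, against 0.310% and 0.387% for anestrus. Its level was 3821 and 3051 CPM against 3163 and 3852 CPM, so each group held a high and a low pool and the groups overlapped. The log2 fold change was -0.03 ± 0.17 (adjusted p = 0.984, edgeR), with an interval from -0.41 to 0.35. Differences of up to 1.33-fold toward anestrus and 1.28-fold toward the follicular phase thus lie within the interval. The sign itself depended on the pools, at 0.12 without follicular pool 2 and 0.16 without anestrus pool 2.

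Secretogranin III, encoded by SCG3 (gene 102171246), binds chromogranin A and the cholesterol-rich granule membrane, and so links the core to the membrane. It was at 364 and 418 CPM in the follicular pools, against 483 and 408 CPM for anestrus. Anestrus pool 1 was highest, and anestrus pool 2 fell between the follicular pools. Its pools were the closest of the 5 genes within the follicular phase, at 1.15-fold. The log2 fold change was -0.19 ± 0.17 (adjusted p = 0.843, edgeR), with an interval from -0.55 to 0.18.

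VGF (gene 106503882), a granin-like protein first found as induced by nerve growth factor, gives rise to peptides that act on energy balance and reproduction. Its level was 108 and 35.6 CPM in the follicular pools, against 174 and 55.9 CPM for anestrus. In each group pool 1 was the high pool, and the groups overlapped. The 2 pools differed 3.04-fold in the follicular phase and 3.11-fold in anestrus, a spread reached by 1.37% and 2.72% of all genes tested. The log2 fold change was -0.67 ± 0.81 (adjusted p = 0.913, edgeR). Its interval, from -2.96 to 1.62, allows a level 7.78-fold higher in anestrus or 3.08-fold higher in the follicular phase, so only a large difference would have been detectable. Leaving out follicular pool 1 or 2 gave -1.66 or -0.08, and leaving out anestrus pool 1 or 2 gave 0.37 or -1.22.

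**Figure D2:**
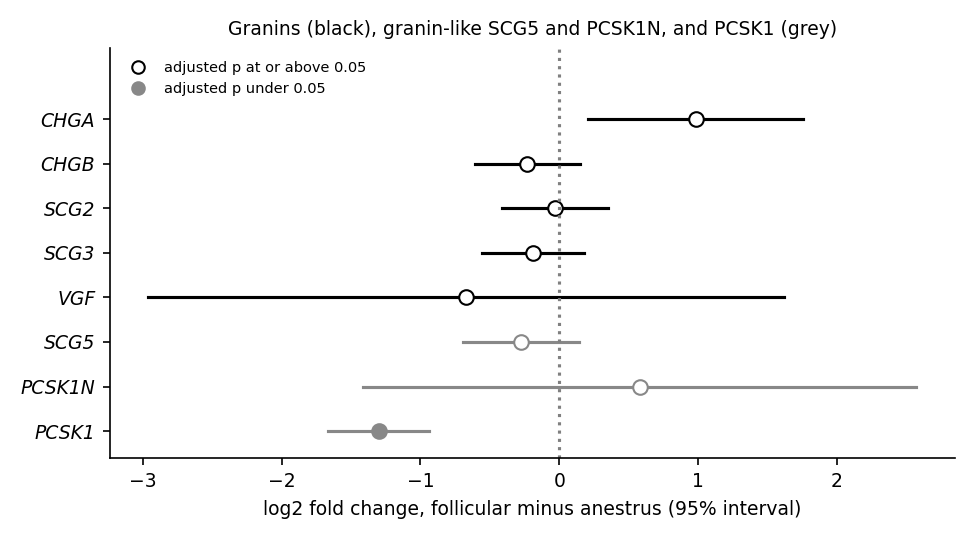
Log2 fold change (follicular minus anestrus) with its unadjusted 95% interval for the 5 granins in black, and for SCG5, PCSK1N and PCSK1 in grey. Filled points passed an adjusted p of 0.05; PCSK1 did, at -1.30, and the interval of VGF is the widest among the granins, from -2.96 to 1.62.

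SCG5 and PCSK1N are often grouped with the granins. SCG5 encodes 7B2, a chaperone of the convertase PCSK2, and was at 1136 and 831 CPM in the follicular pools, against 1313 and 1073 CPM for anestrus. The groups overlapped, and its log2 fold change was -0.28 ± 0.19 (adjusted p = 0.770, edgeR). PCSK1N encodes proSAAS, an inhibitor of PCSK1, and was at 43.7 and 18.2 CPM against 32.8 and 8.99 CPM. As for VGF, pool 1 was the high pool in both groups, here 2.39-fold and 3.65-fold above pool 2. Its log2 fold change was 0.58 ± 0.75 (adjusted p = 0.918, edgeR), with an interval from -1.41 to 2.57. With a pool left out the fold change ran from -0.16 to 1.79.

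Within a pool, the ratio of the counts of 2 genes does not depend on the scaling of the library. CHGA counts were 2.44 and 1.88 times those of CHGB in the follicular pools, against 1.25 and 0.665 times for anestrus. Relative to SCG2 they were 0.411 and 0.306 times, and 0.255 and 0.119 times. The ratio to SCG3 was 4.31 and 2.23 in the follicular pools, against 1.67 and 1.13 for anestrus. Relative to VGF it was 14.5 and 26.2, and 4.64 and 8.23. The follicular pools were thus above the anestrus pools in 4 of 4 ratios with CHGA, and all 4 share the CHGA counts, so they are not separate observations. Among the 6 ratios without CHGA, 1 separated the groups, CHGB over SCG2, at 0.168 and 0.163 in the follicular pools, against 0.204 and 0.180 for anestrus. Single genes separated the groups by CPM, in either direction, in 38.3% of those tested. The share over ratios of gene pairs, which is the like measure here, was not computed.

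**Figure D3:**
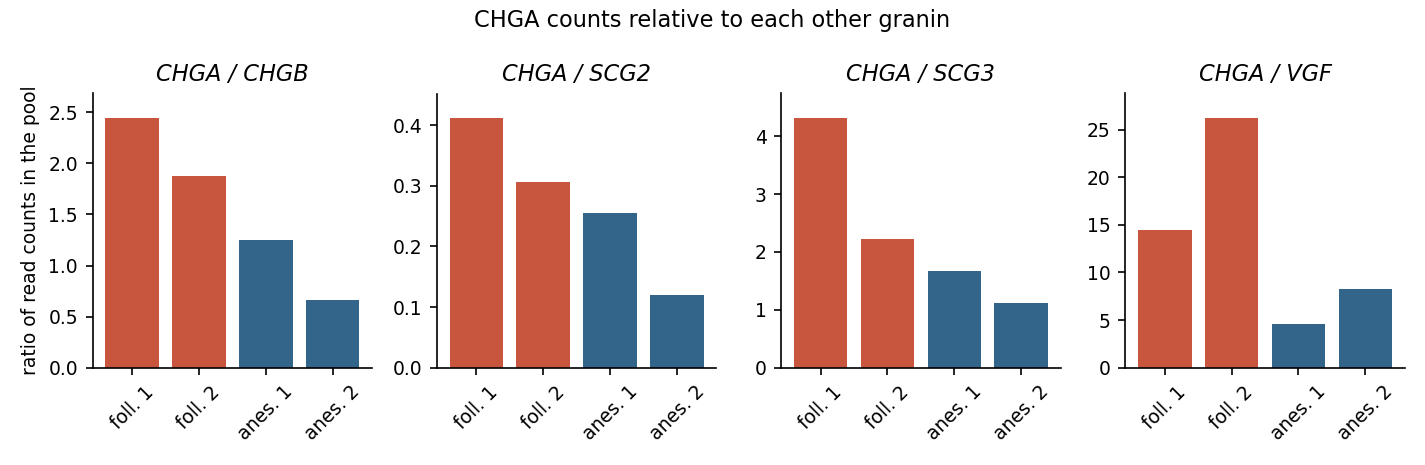
Read counts of CHGA divided by those of each other granin in the same pool, with follicular pools in red and anestrus pools in blue; axes start at 0. The lowest follicular ratio lies above the highest anestrus ratio in each panel, for example 0.306 against 0.255 for SCG2.

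CHGA accounted for 24.1% and 18.9% of all granin counts in the follicular pools, and for 15.3% and 8.41% in the anestrus pools. SCG2 accounted for 58.7% and 61.8%, and for 60.0% and 70.5%. The 5 genes together took 0.654% and 0.497% of all counts in the follicular pools, against 0.517% and 0.55% for anestrus, so the summed granin share overlapped between groups.

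Neurons make most granins of brain tissue, and their markers were read in the same pools. The 14 measured neuron markers all had a positive log2 fold change, with a median of 0.35 beside -0.00067 for all genes tested. Their summed level was 6769 and 7368 CPM in the follicular pools, against 6236 and 5516 CPM for anestrus, and none was at 0. In edgeR 0 of the 14 passed, and DESeq2 and limma-voom called 0. An unadjusted p under 0.05 was found for 4, beside 8.55% of all genes tested. Counts of CHGA were 23.19% and 12.65% of the summed neuron marker counts in the follicular pools, against 12.95% and 8.34% for anestrus. On this footing the CHGA groups overlapped. Those of SCG3 lay apart, at 5.38% and 5.67% against 7.75% and 7.40%, as did those of CHGB, at 9.51% and 6.75% against 10.3% and 12.5%. The summed markers were higher in the follicular pools, so a gene at equal levels moves toward anestrus on this footing. By CPM SCG3 overlapped, and CHGB did so when scaled by RLE size factors or library totals. The share of all genes lying apart on this footing was not computed. The part of neuron content in the granin levels was not tested, and in such bulk tissue fewer cells of a type and less RNA per cell cannot be told apart.

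Pituitary endocrine cells also hold granins. Of 11 measured pituitary markers 2 fell in the follicular phase, TSHB and CGA, the subunits of thyrotropin, and 9 did not pass, with a median log2 fold change of -0.93. Their summed level was 5567 and 4543 CPM in the follicular pools, against 14760 and 11550 CPM for anestrus, and none was at 0 in all pools. CGA made up most of that sum, at 5232 and 4295 CPM against 13140 and 10310 CPM. Astrocyte and oligodendrocyte markers had medians of 0.57 over 10 genes and 0.75 over 15, of which 1 and 0 passed in edgeR. An unadjusted p under 0.05 was found for 6 and 11, beside 8.55% of all genes tested. DESeq2 called 2 and 2, of 146 over all genes, and limma-voom called 1 and 0. Genes typical of the medio-basal hypothalamus, among them KISS1, AGRP, GHRH and RAX, were found in 10 of 10 cases, with summed levels from 398 to 730 CPM. RAX rested on few counts, 28 and 4 in the follicular pools, against 41 and 10 for anestrus. Counts of CHGA were 28.2% and 20.5% of the summed pituitary marker counts in the follicular pools, against 5.47% and 3.98% for anestrus. On this footing CHGB, SCG2 and SCG3 also lay apart with the follicular pools higher, at 11.6% and 10.9% against 4.37% and 5.99% for CHGB, while VGF overlapped. The sum in the denominator itself was lower in the follicular pools, so a gene at equal levels in all pools would lie apart in this direction. SCG2 did so although its CPM levels overlapped. These ratios thus do not show a granin difference, and the share of all genes lying apart on this footing was not computed. The part of pituitary and glial content in the granin levels was not tested.

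The enzymes that process granins included the 1 gene of the granule pathway that passed. PCSK1, which cuts granins and prohormones, was at 252 and 213 CPM in the follicular pools, against 540 and 605 CPM for anestrus. The groups did not overlap, and the gene fell in the follicular phase by 1.30 ± 0.17 on the log2 scale (adjusted p = 0.0153, edgeR). With all pools PCSK1 passed in 9 of 9 other analyses, at log2 fold changes from -1.30 to -1.28. With a pool left out they ran from -1.41, without follicular pool 1, to -1.17. PCSK2, the other granule convertase, was at 56.1 and 49.2 CPM against 35.4 and 38.4 CPM. It did not pass, at 0.51 ± 0.19 on the log2 scale (adjusted p = 0.457, edgeR). PCSK5, a related convertase, did not pass either, at -0.53 ± 0.20. Of 15 measured processing genes, 1 fell, 0 rose and 14 did not pass, and their median was 0.14. For 3 of the 15 (PCSK1, PCSK2 and PCSK5) the unadjusted p was under 0.05 in edgeR, beside 8.55% of all genes tested. The groups of the list lay apart for 3 genes higher in the follicular phase and 4 higher in anestrus, near the shares of all genes tested, 17.6% and 20.7%. CPE, which trims the basic residues left after cutting, had a log2 fold change of 0.14 ± 0.16, and PAM, which amidates peptides, had 0.17 ± 0.16; both were named after their values were seen.

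Genes of granule formation and of the granule membrane showed no call. Of 15 measured members 0 passed in edgeR, DESeq2 or limma-voom, 0 had an unadjusted p under 0.05, and the median log2 fold change was 0.16. BAIAP3, which acts in dense-core vesicle trafficking, had 0.60 ± 0.28, PTPRN2, a transmembrane protein of the granule, 0.42 ± 0.25, and ICA1, which acts in vesicle maturation, -0.34 ± 0.20. Without anestrus pool 1, BAIAP3 and PTPRN2 were at 1.04 and 0.79, and without anestrus pool 2 at 0.31 and 0.17.

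Genes of granule exocytosis had a median log2 fold change of 0.22, with 21 of 27 measured members positive. In edgeR 0 of them passed, and DESeq2 and limma-voom called 0. An unadjusted p under 0.05 was found for 5, beside 8.55% of all genes tested. The groups lay apart for 10 of the 27, all higher in the follicular phase, where 17.6% of all genes tested did so. RAB3C, a small GTPase of secretory vesicles, had a log2 fold change of 0.43 ± 0.16, and RPH3A, a RAB3 effector, of 0.49 ± 0.19. Without anestrus pool 2 RAB3C was at 0.61, and without anestrus pool 1 at 0.30. The medians of the formation and exocytosis genes lie below that of the neuron markers, 0.35, a difference that was not tested.

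**Figure D4:**
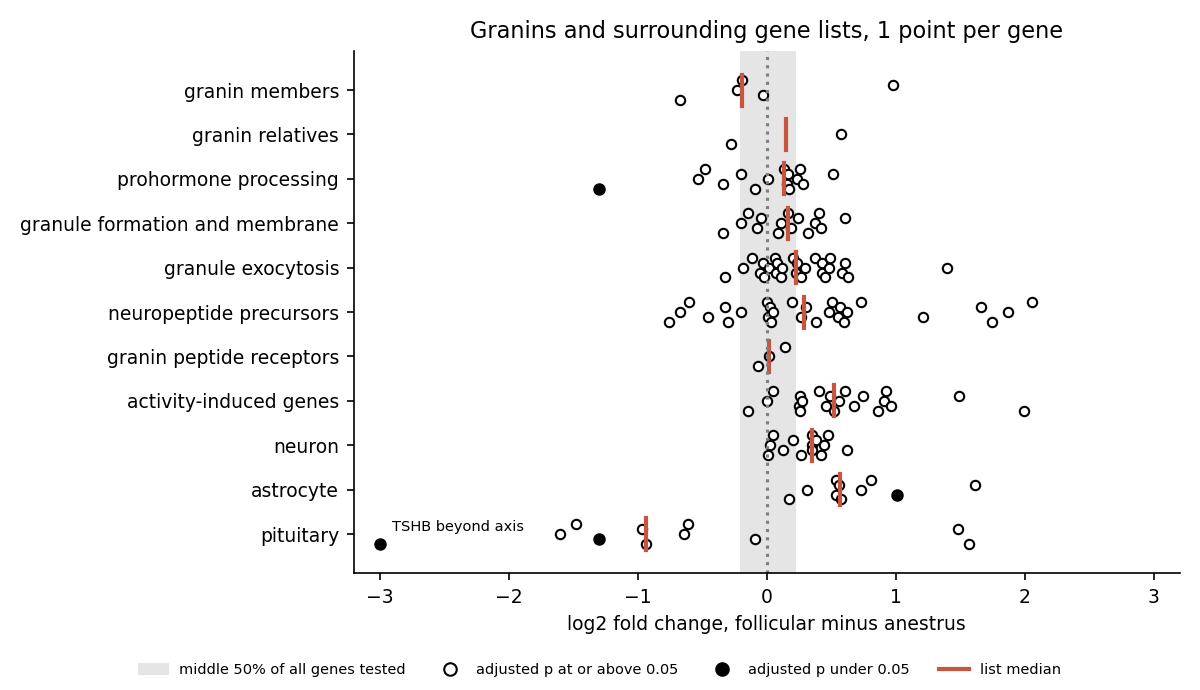
Log2 fold change (follicular minus anestrus) of each measured gene in the granin list, the granule pathway lists and 3 marker lists, with 1 point per gene, filled where the adjusted p was under 0.05, a red line at each median and a grey band for the middle 50% of all genes tested. The granin median, -0.19, lies left of that of the neuron markers, 0.35, and TSHB lies beyond the axis at -7.45.

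Neuropeptide precursors, the cargo that granins condense with, had a median of 0.29 over 28 measured genes. In edgeR 0 passed, and 7 had an unadjusted p under 0.05, beside 8.55% of all genes tested. DESeq2 called 2 (TRH and ADCYAP1), of 146 over all genes, and limma-voom called 0. ADCYAP1, the precursor of the peptide PACAP, was at 126 and 140 CPM in the follicular pools, against 86.9 and 73.7 CPM for anestrus, a log2 fold change of 0.73 ± 0.17 (adjusted p = 0.216, edgeR). TRH, the precursor of thyrotropin-releasing hormone, was at 14.4 and 6.39 CPM against 4.21 and 2.44 CPM (1.66 ± 0.46). CRH, the precursor of corticotropin-releasing hormone, rested on 43 and 33 counts against 9 and 8 (1.75 ± 0.56). ADCYAP1 was at 0.85 and 0.66 without anestrus pool 1 and 2. TRH was at 0.97 and 2.12 without follicular pool 1 and 2, and at 2.096 and 1.36 without anestrus pool 1 and 2.

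VGF and SCG2 are also known as genes that neurons induce on activity through CREB. Of 21 measured activity-induced genes, 20 had a positive log2 fold change, with a median of 0.52. VGF and SCG2 had -0.67 and -0.03, and the other granins CHGA, CHGB and SCG3 had 0.98, -0.23 and -0.19. The interval of VGF, from -2.96 to 1.62, includes that median, and that of SCG2, from -0.41 to 0.35, does not. The difference between the granins and this list was not tested. In edgeR 0 of the 21 passed, and 7 had an unadjusted p under 0.05, beside 8.55% of all genes tested. DESeq2 called 1 (NPAS4), of 146 over all genes, and limma-voom called 0. NPAS4, an activity-induced transcription factor, was at 11.6 and 6.45 CPM against 2.38 and 2.17 CPM (1.99 ± 0.40). The nuclear receptor genes NR4A3 and NR4A1 had 0.75 ± 0.23 and 0.96 ± 0.32. NPAS4 was at 1.52 and 2.35 without follicular pool 1 and 2, and at 2.06 and 1.97 without anestrus pool 1 and 2. It passed with either replicate block (adjusted p = 0.038 and 0.0136, edgeR). NR4A1 was at 0.51 and 1.31 without follicular pool 1 and 2, and at 1.15 and 0.83 without anestrus pool 1 and 2. Of 8 measured genes in the list of CREB family members and their partners 0 passed in edgeR, DESeq2 or limma-voom, and 1 had an unadjusted p under 0.05. This was CREM, a CREB relative with activator and repressor forms, at 73.0 and 40.0 CPM against 95.5 and 120.2 CPM (-0.93 ± 0.28, adjusted p = 0.351, edgeR). CREM was at -1.42 and -0.56 without follicular pool 1 and 2, and at -1.09 and -0.71 without anestrus pool 1 and 2. It passed with the replicate block by title number (adjusted p = 0.00642, edgeR) and with no count filter (adjusted p = 0.00063). The CREB coactivators CRTC3 and CRTC1 had -0.23 ± 0.17 and 0.28 ± 0.22.

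Receptors for granin-derived peptides were measured for 3 genes. C3AR1, a receptor for a VGF peptide, was at 10.2 and 13.5 CPM in the follicular pools, against 11.8 and 11.5 CPM for anestrus (0.02 ± 0.29). C1QBP, reported to bind the same peptide, had -0.07 ± 0.21, and GPR83, a receptor for a proSAAS peptide, had 0.14 ± 0.22. None passed in edgeR, DESeq2 or limma-voom, and 0 had an unadjusted p under 0.05.

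The granins did not share a pattern over the 4 pools. As a measure of likeness, levels were taken as log2(CPM + 0.5), centred on each gene's mean, and compared by their root mean square difference. Between granins it was smallest for CHGB and SCG2, at 0.124, and largest for CHGA and VGF, at 0.923. Among 10381 other named genes with a mean of at least 10 CPM, those closest to CHGA were SLC14A1, a urea transporter (0.085), TMEM179 (0.0958) and SLC25A22, a mitochondrial glutamate carrier (0.0991), and 36 genes lay within 0.2. SLC14A1 was at 99.7 and 60.7 CPM in the follicular pools, against 45.1 and 29.0 CPM for anestrus. It did not pass (adjusted p = 0.284, edgeR), but passed with the replicate block by library name (adjusted p = 0.0148) or title number (adjusted p = 0.00444), in DESeq2 (adjusted p = 0.0139) and with no count filter. Its log2 fold change was 1.43 without follicular pool 2, and 1.47 and 0.88 without anestrus pool 1 and 2. SLC14A1 was picked for its likeness to CHGA, so its calls are not a separate observation.

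The gene closest to VGF was POMC, the precursor of melanocortins and beta-endorphin, at a difference of 0.248. Its level was 169.8 and 37.8 CPM in the follicular pools, against 259.6 and 92.0 CPM for anestrus, so it had the high values in pool 1 of each group, like VGF. DLK1 (0.307) and CRELD2 (0.322) followed, and 0 genes lay within 0.2 of VGF. The flat patterns of CHGB, SCG2 and SCG3 had 2951, 3696 and 4350 genes within 0.2, and their closest genes were POLR2H, TP53BP2 and GPR108 for CHGB, AQP1, UBE3B and BCL7C for SCG2, and STRADB, PUM3 and TXNL1 for SCG3. With 4 pools, likeness describes these libraries only.

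**Figure D5:**
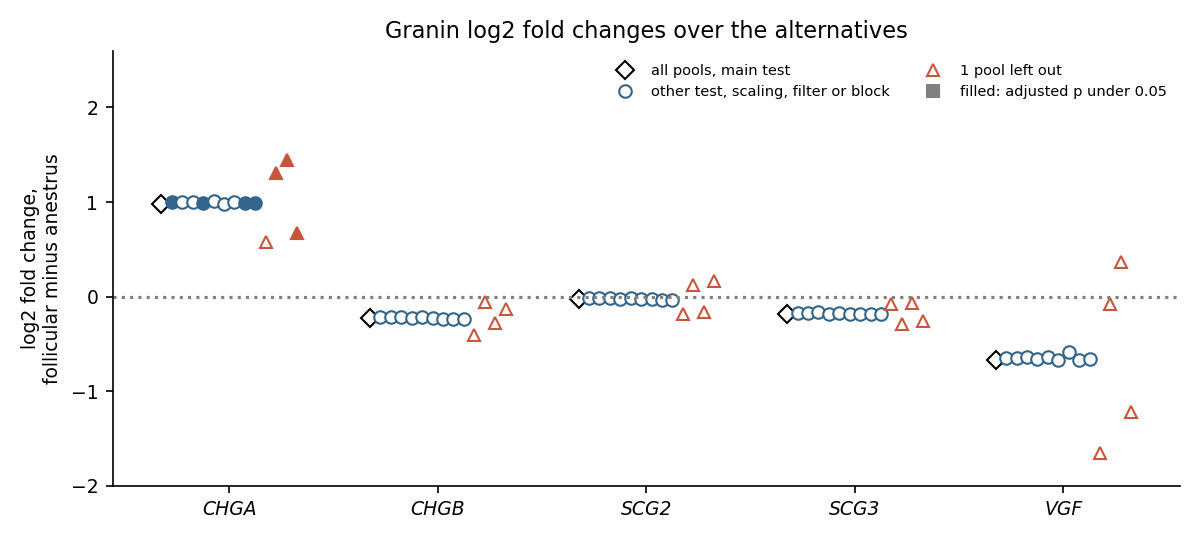
Log2 fold change (follicular minus anestrus) of each granin in the main test (diamond), in 9 analyses of all pools with another test, scaling, filter or replicate block (circles), and with 1 pool left out (triangles); filled symbols had an adjusted p under 0.05. CHGA is positive in 13 of 13 alternatives and passes in 7, while VGF runs from -1.66 to 0.37.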

How the data were processed

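TriReagent was used for extraction and a stranded Truseq kit for the mRNA libraries, per the labels' protocols. The authors deposited raw counts of reads per gene. The submitters' processing notes name featureCounts 2.0.0, SAMtools 1.9, TopHat2 2.1.1 with Bowtie2 2.3.5.1, and FastQC after bcl2fastq 2.20. The build, annotation, strand option and handling of multi-mapped reads are not given in the sources, so no coordinates are printed. No other gene overlapped a granin in the RefSeq table of assembly ARS1.2, which was used only for names and neighbours.

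Genes were filtered with filterByExpr (minimum count 10, minimum total 15), scaled by TMM and fitted in R 4.3.3 by edgeR 4.0.16 (glmQLFit with robust estimation, glmQLFTest; 1 mean per group, 2 residual degrees of freedom). Adjusted p-values are Benjamini-Hochberg over all genes tested, and standard errors were taken from the F statistic. Follicular pools 1 and 2 held 25292678 and 17090623 counts, and anestrus pools 1 and 2 held 14553821 and 17910056. Pools are numbered by library name; the titles number the anestrus pools in the opposite order. Alternatives were DESeq2 1.42.0, limma-voom (limma 3.58.1), other scalings and filters, a replicate block and leaving out each pool. The steps were tested on simulated data.

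The granins and the 19 gene lists were chosen with earlier results of these data known. Of 239 list entries, 232 matched a symbol. Named are all granins, SCG5 and PCSK1N, members of the pathway lists that passed, the 3 with the smallest p in each of those lists, and the 3 genes closest in pattern to each granin; any other gene was picked with its values known. The result of 1 gene that this rule names is not reported here.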

Additional observations from a re-analysis of the deposited data

How the results depend on the processing

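Over 13 alternatives CHGA was higher in the follicular phase in 13, CHGB and SCG3 lower in 13, SCG2 lower in 11 and VGF lower in 12; none of these 4 passed in any. Granin calls numbered 1, CHGA, in DESeq2 (log2 fold change 1.00), with no count filter (0.99) and with a replicate block by library name (0.99) or title number (0.99), and from 0 to 1 with a pool left out (0.58 to 1.44). Over all genes, 34 calls (2 higher in the follicular phase, 32 in anestrus) became 146 (44 and 102) in DESeq2, 300 (127 and 173) with no count filter, 90 (20 and 70) with the replicate block by library name and 130 (40 and 90) by title number, and ran from 4 to 810 (0 to 541 and 4 to 282) with a pool left out. Calls higher in the follicular phase were 1 without robust estimation and 1 in limma-voom. Pathway genes called, 1 of 119, became 4, 8, 2 and 3 in the first 4 of these settings and ran from 0 to 22 with a pool left out. The cause of these changes was not tested.

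The labels do not say that equal numbers mark a shared source. Across genes, the differences between pool 1 and pool 2 correlated at r = 0.304 between the groups by library name. By title number this is -0.304, the same value with its sign turned by construction. The pairing is thus at most a hint from the data. For VGF the replicate block by library name gave an adjusted p of 0.072 and that by title number 0.9995 (edgeR), both at the same sign.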

Other observations

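In both groups, pool 1 was above pool 2 for 2 of the 5 granins, CHGA and VGF, and for SCG5 and PCSK1N. The same held for 16 of 28 neuropeptide precursors and for 33.2% of all genes tested. Pool 2 was above pool 1 in both groups for 2 of the 28 precursors and for 0 of the 5 granins, beside 29.1% of all genes tested. For AVP, the vasopressin precursor, the levels were 34.0 and 16.6 CPM in the follicular pools and 12.3 and 1.72 CPM in the anestrus pools, and for SST, the somatostatin precursor, 154 and 87.1 CPM and 105 and 52.1 CPM. AVP and SST were chosen after their values were seen, and the pool numbers carry no stated meaning. Pool 1 was above pool 2 in both groups for 7 of 10 markers of the medio-basal hypothalamus, 6 of 9 tanycyte markers and 3 of 14 neuron markers. These lists share genes, so their counts are not separate observations. POMC, AGRP, KISS1, TAC3 and GHRH are also among the neuropeptide precursors, and RAX is also a tanycyte marker.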
